A study of Mus musculus with 11 samples.

Results

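Genes for G protein, calcineurin and MAP kinase signalling were examined in ventricular RNA from the TG1306/1R mouse line, whose heart makes excess angiotensinogen, from which angiotensin II is cut. The genes were taken by the start of their symbol on the array platform: Rgs with a digit, Gna, Gnb or Gng with a digit, Plcb, Prkc, Camk, Ppp3, Nfat, Mef2, Gata with a digit, Map2k, Map3k, Map4k, Mapk and Dusp. This gave 92 genes on 169 spots, of 8106 named genes and 12097 features (named genes and single unnamed spots) tested on the arrays. All 92 could be tested, 47 of them with 2 or more spots. A few carry a family prefix without being a member of that enzyme family, such as Prkcsh, which encodes a subunit of the glycoprotein-trimming enzyme glucosidase II. Several well-known members of these families, among them Mapk3, Dusp1, Dusp6, Rgs4, Rgs5, Prkca, Prkce and Mef2c, were not analysed here.

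The mice were 12 males of about 60 weeks on a C57/BL6 background, with 4 in each of 3 groups. Dil mice were heterozygous carriers of the transgene with a dilated heart, Hyp mice were heterozygous carriers with concentric hypertrophy, and WT mice were littermates without the transgene. Per the labels, carrier hearts were assigned to Hyp or Dil by genotype, chamber morphology, cardiac weight index and hypertrophic marker expression, so these 2 groups differ by the outcome they were chosen for and not by an added allele or agent. No source used here names the promoter that drives the transgene. The cardiac weight index was 7.8 to 9.2 mg/g in Dil, 5.3 to 5.8 mg/g in Hyp and 4.2 to 4.9 mg/g in WT. The lowest Hyp value is uncertain, since the labels of 2 arrays give the Hyp mouse of set 3 different indices, 5.3 mg/g on one of them. Total RNA of both ventricles and the septum was labelled with Cy3 or Cy5, and each of 11 cDNA arrays received the RNA of 2 mice with the same number, called a set here. The arrays were 3 of Dil with WT (sets 1, 3 and 4), 4 of Hyp with WT and 4 of Dil with Hyp. The Dil and WT array of set 2 was not analysed here, so Dil against WT in set 2 rests on the 2 other arrays of that set. Ratios give no levels, and the labelled tissue could therefore not be checked against the level of its defining markers.

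Angiotensin II and other hypertrophic hormones act on heart muscle cells through receptors that couple to the Gq class of G proteins. The activated alpha subunit turns on phospholipase C beta, which yields diacylglycerol, an activator of protein kinase C, and inositol trisphosphate, which releases calcium, and RGS proteins end the signal by speeding GTP hydrolysis. Calcium and calmodulin activate calcineurin, which dephosphorylates NFAT factors so that they enter the nucleus, and calmodulin-dependent kinases, which act on MEF2 factors through class II deacetylases. MAP kinases stand at the end of cascades of 3 or more kinases and are switched off by dual-specificity phosphatases.

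All values below are log2 ratios, with Dil or Hyp over WT, or Dil over Hyp. The direction of the deposited ratio was taken as Cy5 over Cy3 and is only likely: on this reading Nppb, a known marker of hypertrophy (per the labels, carrier hearts were picked in part by such markers, which are not named there), was higher by 2.53 in Dil and 1.02 in Hyp, and Agt by 2.15 and 2.09, both against WT. With the other direction every sign would turn. Agt, measured on 1 spot and 10 arrays, did not pass in Hyp against WT (adjusted p = 0.871, limma). Its set values there were 2.55, 2.29, 0.41 and 3.43, and its direct Hyp over WT ratio in set 3 was -0.24. Fitted changes carry a standard error (SE, n = 4 mice per group) and a p adjusted over all 12097 features (Benjamini-Hochberg, limma), and a gene is said to have risen or fallen where the adjusted p is under 0.05. In tissue RNA, fewer cells of a type and less RNA per cell cannot be told apart.

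In dilated hearts against WT, 5 of the 92 genes passed the test (5.43%, against 2.15% of all features). Rgs2, an RGS protein that acts on Gq, fell to 0.53 times the WT level. Nfatc4, a calcineurin-regulated NFAT factor, Dusp10, a phosphatase of p38 and JNK kinases, and Mapk14, which encodes p38 alpha, also fell, and Prkcd, protein kinase C delta, rose. In hypertrophic hearts against WT 0 of 92 passed (0% of all features), and in dilated against hypertrophic hearts 0 of 92 passed (0.165% of all features) (limma), with 4 and 10 of the 92 at an unadjusted p under 0.05. The residual error of this fit counts arrays and not mice. With the replicate block, in which each set of mice gives 1 value, 0 of the 92 genes passed in Dil against WT, and 6 of all features did (1734 at an unadjusted p under 0.05).

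The promoters of the 4 genes that fell are shown because these genes moved in the same direction. They are the 250 bases before the RefSeq transcription start in the mouse build GRCm38.p6, written 5′ to 3′ along the gene. Capitals mark the NFAT core GGAAA and the partial cyclic AMP response site TGACG, or their reverse complements.
Rgs2, chr1:144004150-144004399, minus strand: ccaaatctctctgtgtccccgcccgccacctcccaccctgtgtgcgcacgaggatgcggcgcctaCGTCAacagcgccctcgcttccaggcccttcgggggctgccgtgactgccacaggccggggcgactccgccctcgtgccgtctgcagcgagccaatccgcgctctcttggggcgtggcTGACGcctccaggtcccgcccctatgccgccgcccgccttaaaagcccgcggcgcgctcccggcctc
Nfatc4, chr14:55824545-55824794, plus strand: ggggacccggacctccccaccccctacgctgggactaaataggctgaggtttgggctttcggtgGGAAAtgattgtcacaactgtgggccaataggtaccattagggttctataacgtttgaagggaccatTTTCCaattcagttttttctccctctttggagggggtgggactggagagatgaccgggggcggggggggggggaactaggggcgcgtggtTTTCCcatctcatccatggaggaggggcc
Dusp10, chr1:184034131-184034380, plus strand: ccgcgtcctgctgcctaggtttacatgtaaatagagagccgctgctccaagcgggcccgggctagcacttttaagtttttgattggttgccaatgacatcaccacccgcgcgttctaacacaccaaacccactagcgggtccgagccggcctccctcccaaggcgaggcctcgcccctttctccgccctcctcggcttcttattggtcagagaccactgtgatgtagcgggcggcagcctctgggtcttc
Mapk14, chr17:28691092-28691341, plus strand, the first of 2 entries: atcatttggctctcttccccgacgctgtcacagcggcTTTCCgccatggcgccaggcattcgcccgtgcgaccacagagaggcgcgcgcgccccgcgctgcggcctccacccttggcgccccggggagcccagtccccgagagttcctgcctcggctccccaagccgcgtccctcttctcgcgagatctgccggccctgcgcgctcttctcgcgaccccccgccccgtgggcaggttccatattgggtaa
The window of Rgs2 held 2 partial cyclic AMP response sites and 0 NFAT cores, that of Nfatc4 held 3 NFAT cores and 0 of these sites, the printed window of Mapk14 held 1 NFAT core, and that of Dusp10 held neither. The second entry of Mapk14, which is not printed, held 6 NFAT cores and 1 GATA core. GGAAA was present on either strand in 55.6% of all 32851 promoters in the table and in 54.3% of the 105 promoters of the signalling genes, which cover 76 of the 92 genes. For TGACG these shares were 17.8% and 22.9%, for the GATA core AGATAA 9.99% and 4.76%, for the AP-1 site TGAGTCA 4.46% and 3.81%, and for CCAAT 33.8% and 22.9%. These matches describe letters in a window and say nothing of binding.

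Rgs2 had the largest change of the 92 genes in Dil against WT. On the 3 direct arrays its ratio of Dil over WT was -0.59, -0.93 and -1.53 in sets 1, 3 and 4. On the Dil over Hyp arrays it was -0.38, -0.58, -0.85 and -0.69 in sets 1 to 4, and on the Hyp over WT arrays -0.29, -0.078, -0.31 and 0.17. Every array that held Dil RNA thus gave a ratio below 0, including the direct array of set 4, on which Dil was labelled with Cy3 and not Cy5. The fitted change was -0.93 ± 0.13 (SE, n = 4; adjusted p = 0.00967, limma), with -0.71, -0.65, -1.01 and -1.19 in sets 1 to 4. Rgs2 had 3 spots, which gave -0.90, -0.87 and -0.99 when fitted one by one, and each of the 3 passed. With the replicate block the change was -0.89 with an adjusted p of 0.0592 (limma).

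Prkcd encodes a protein kinase C that is activated by diacylglycerol without calcium. Its ratio of Dil over WT was 0.15, 0.51 and 0.77 on the arrays of sets 1, 3 and 4, and of Hyp over WT 0.19, 0.45, 0.30 and 0.022 in sets 1 to 4. All 7 carrier over WT ratios were above 0, while the Dil over Hyp ratios of 0.11, -0.17, 0.57 and 0.43 lay on both sides of 0. The fitted change in Dil against WT was 0.49 ± 0.095 (SE, n = 4; adjusted p = 0.0311, limma), and the set values of 0.29, 0.27, 0.63 and 0.66 were higher in sets 3 and 4. The adjusted p was 0.114 with the replicate block. The gene had 1 spot.

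Nfatc4 was measured on 1 spot. Its Dil over WT ratios were -0.49, -0.47 and -0.58 in sets 1, 3 and 4, and its Hyp over WT ratios -0.40, -0.28, -0.0030 and -1.0 in sets 1 to 4. These ratios include the dye effect, fitted at -0.13, and of the direct Dil and WT arrays only that of set 4 had Dil in Cy3. The closeness of the 3 direct Dil ratios is therefore no measure of their spread, and the set values below lie further apart. Hyp over WT ran from close to 0 in set 3 to the lowest ratio of the gene in set 4. The fit gave -0.57 ± 0.11 in Dil against WT (SE, n = 4; adjusted p = 0.0311, limma), with set values of -0.37, -0.85, -0.41 and -0.80. In Hyp against WT the change was -0.36 with an adjusted p of 0.900, the smallest of the 92 genes in that comparison. With the replicate block the adjusted p in Dil against WT was 0.0964.

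Dusp10 had Dil over WT ratios of -0.49, -0.57 and -0.32 in sets 1, 3 and 4 on its single spot. Its Hyp over WT ratios were -0.36, -0.27, -0.45 and -0.18 in sets 1 to 4, and its Dil over Hyp ratios 0.035, -0.33, -0.33 and -0.80. In these single ratios, which include the dye effect, both carrier groups were below WT on every array, and Dil was below Hyp on 3 of 4. With that effect removed, the set values of Hyp against WT were -0.31, -0.35, -0.38 and 0.038. Those of Dil against Hyp were -0.073, -0.25, -0.26 and -0.58. The change in Dil against WT was -0.53 ± 0.11 (SE, n = 4; adjusted p = 0.0317, limma; set values -0.38, -0.60, -0.64 and -0.54), and the replicate block gave an adjusted p of 0.0739.

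Mapk14, the fourth gene that fell, had Dil over WT ratios of -0.070, -0.23 and -0.63 in sets 1, 3 and 4. Its Hyp over WT ratios were -0.19, -0.24, -0.091 and -0.36 in sets 1 to 4, and its Dil over Hyp ratios -0.13, -0.26, -0.21 and -0.27. All 11 ratios were below 0. The fitted change in Dil against WT was -0.37 ± 0.079 (SE, n = 4; adjusted p = 0.0412, limma), with set values of -0.17, -0.50, -0.25 and -0.63. Its 3 spots gave -0.50, -0.19 and -0.44 when fitted one by one, and 0 of the 3 passed alone. With the replicate block the adjusted p was 0.154. Next beyond the threshold stood Mapk1ip1, with -0.43 ± 0.099 and an adjusted p of 0.0528 (limma), whose set values were -0.42, -0.11, -0.40 and -0.62. It passed under 4 alternatives (adjusted p = 0.0220 to 0.0487), and with the replicate block its adjusted p was 0.155.

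**Figure D1:**
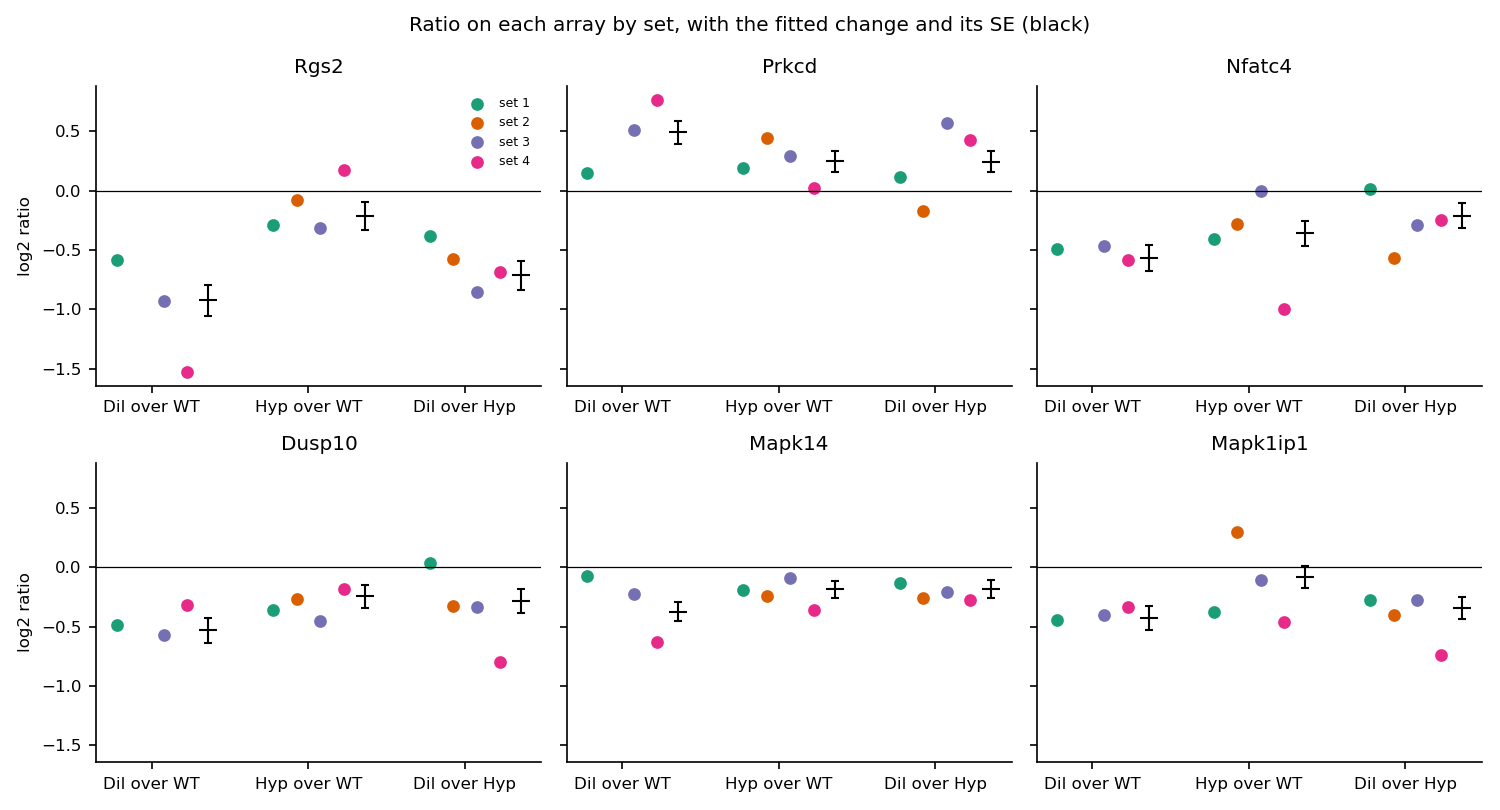
Log2 ratio of 6 genes on each array, with Dil over WT, Hyp over WT and Dil over Hyp along the horizontal axis, points coloured by set, and the fitted change ± SE as a black bar. The 7 Rgs2 ratios of arrays with Dil RNA lie between -1.53 and -0.38, and all 11 Mapk14 ratios lie below 0.

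Whether the 5 genes passed depended on the arrays in the fit. The Dil and WT arrays of sets 3 and 4 had the widest spread of ratios over all spots (scaled median absolute deviation 0.335 and 0.354, against 0.116 to 0.250 on the other 9 arrays). Without these arrays, an alternative chosen after seeing the data, 0 of the 5 genes passed, and the adjusted p of Rgs2 was 0.0955 (limma). The fitted changes without these arrays were -0.73 for Rgs2, 0.43 for Prkcd, -0.61 for Nfatc4, -0.63 for Dusp10 and -0.34 for Mapk14. Leaving out set 3 gave adjusted p values of 0.222 to 0.274 for the 5 genes, and leaving out set 4 gave 0.0517 to 0.325. Without set 1 or without set 2, Rgs2 passed (adjusted p = 0.0310 and 0.0202) and the other 4 did not (0.0577 to 0.0767 and 0.0512 to 0.107). The change of Rgs2 was -1.01, -0.98, -0.90 and -0.79 without sets 1 to 4, and that of Mapk14 -0.46, -0.36, -0.42 and -0.27. Each of these fits holds fewer arrays. One column, that of the WT and Hyp array of set 1, was displaced in the deposited table and was realigned. When this array was left out, Rgs2 passed (adjusted p = 0.0217) and the other 4 had adjusted p values of 0.0587 to 0.0733. No alternative turned the direction of any of the 5.

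**Figure D2:**
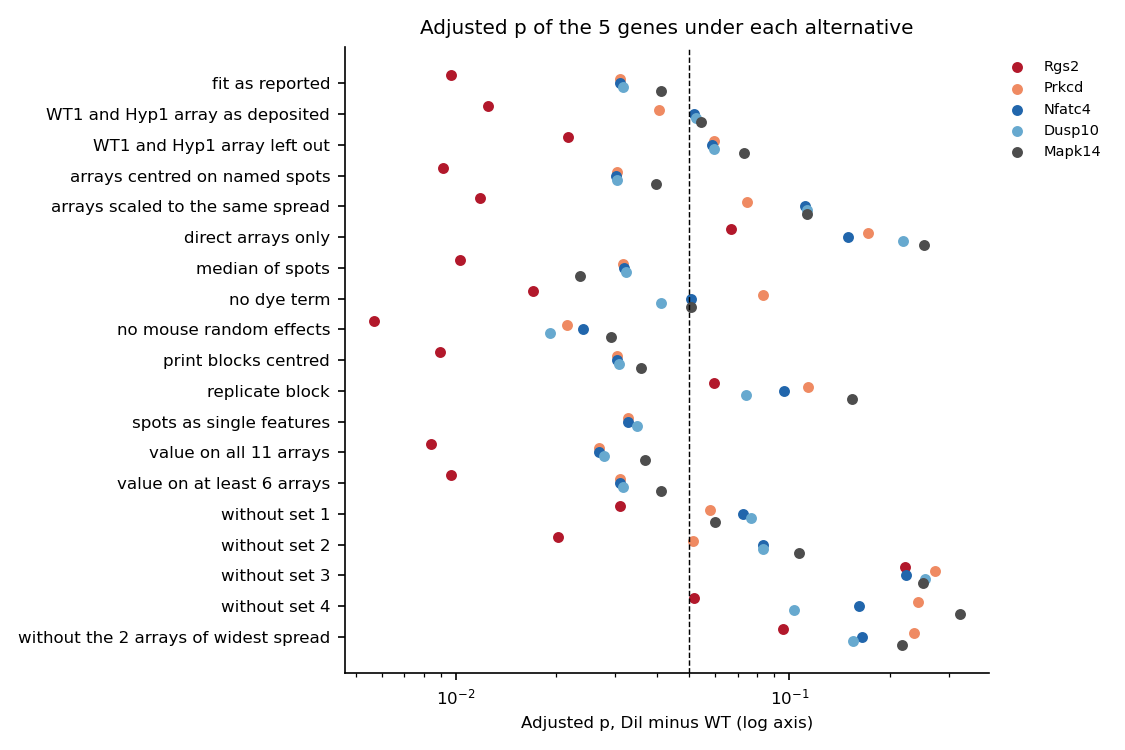
Adjusted p (log axis) of the 5 genes in Dil against WT under the fit as reported and each alternative, 1 row each, with the threshold of 0.05 as a dashed line. Rgs2 was past the threshold in 12 of 17 alternatives and Mapk14 in 6 of 17, and with the replicate block all 5 points lie to the right of the line. The alternative with a value on at least 6 arrays, counted here, held the same 12097 features as the fit as reported and could not differ from it.

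Markers of other cell types were read from the same arrays. Of 11 measured fibroblast markers, 9 were above 0 in Dil against WT, with a median of 0.41, and the median of the list was -0.097, 0.12, 0.54 and 0.98 in sets 1 to 4. Fbln2, a matrix protein gene, rose by 1.00 ± 0.23 (SE, n = 4; adjusted p = 0.0486, limma; 0.196 with the replicate block), and the other 10 did not pass. The 4 leukocyte markers had a median of 0.25, the 7 endothelial markers -0.055, the 5 smooth muscle and pericyte markers -0.033 and the 2 erythrocyte markers 0.22. Of the ventricular cardiomyocyte markers 3 were measured, of which Atp2a2, the calcium pump of the reticulum, had -0.47, Ryr2, its release channel, -0.33 and Ttn, titin, 0.075, and 0 passed. In Hyp against WT the fibroblast markers had a median of 0.066. The part of these cells in the changes of the signalling genes was not tested.

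Over all 92 genes, the fitted changes in Dil against WT lay above 0 in 49 and below 0 in 43. Their median was 0.012 (0.0029 over all features) and their scaled median absolute deviation 0.128 (0.130 over all features). An unadjusted p under 0.05 was reached by 16 (17.4%, 16.2% of all features), of which 9 were higher and 7 lower in Dil. The 4 set values had the same sign in 21 (22.8%, 23.0% of all features). Apart from the 5 calls at the adjusted threshold, these shares lay near those of all features.

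**Figure D3:**
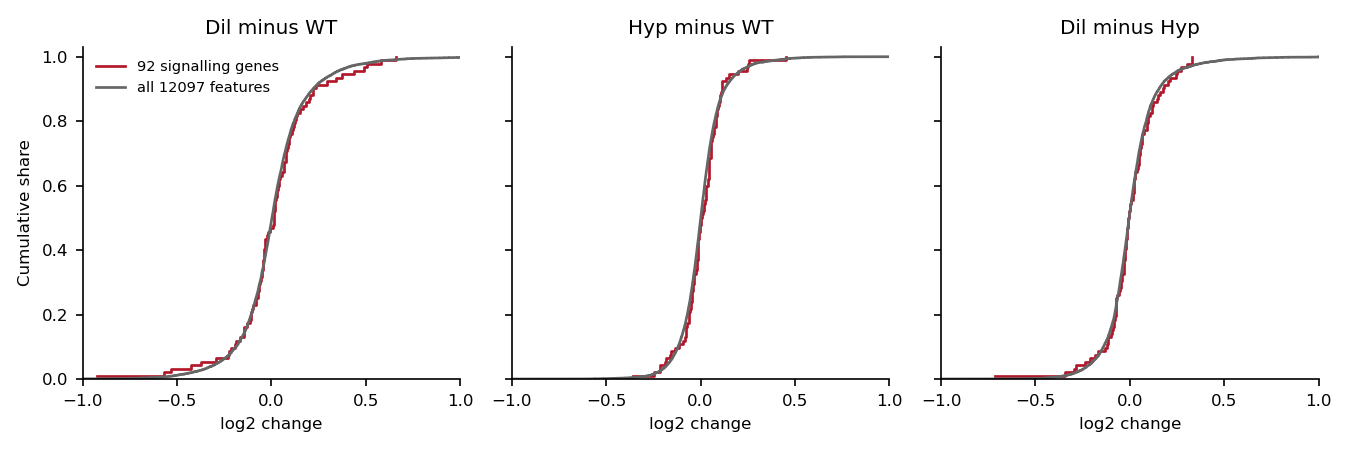
Cumulative share of the 92 signalling genes (red) and of all 12097 features (grey) by log2 change, in 1 panel per comparison, cut at -1 and 1. The curves run close together, with medians of 0.012 and 0.0029 in Dil against WT, and are steepest in Hyp against WT.

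Of the RGS proteins, 8 genes were measured, and Rgs2 was the 1 that passed in Dil against WT. Rgs19, which acts on Gi subunits, had -0.23 ± 0.064 with an adjusted p of 0.0983, and its set values of -0.25, -0.42, -0.16 and -0.18 were all below 0. The other 6 lay between -0.10 and 0.13. The median of the group was -0.043.

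The genes with a Gna, Gnb or Gng symbol numbered 16, and 0 passed (limma), with 2 at an unadjusted p under 0.05. The Gq class subunits Gnaq and Gna11, which link the angiotensin receptor to phospholipase C, had 0.042 ± 0.063 (95% interval -0.097 to 0.18, 4 spots) and 0.13 ± 0.17 (95% interval -0.23 to 0.49, 1 spot). For Gnaq a difference larger than 0.18 in either direction lies outside the interval. Gnas, the subunit that activates adenylyl cyclase, had -0.071 ± 0.060. Of the inhibitory subunit genes, Gnao1 had 0.58 ± 0.19 (adjusted p = 0.155, limma; set values 0.057, 0.15, 0.60 and 1.29), Gnai2 had 0.44 ± 0.21, Gnai3 had 0.019 ± 0.12 and Gnai1 had -0.21 ± 0.069 (adjusted p = 0.147, limma). These genes were not tested against each other. All 5 spots of Gnai2 were above 0, at 0.24 to 0.61, but its set values of 0.46, 0.17, -0.017 and 1.01 did not share a sign. The 4 genes with a Gnb symbol, which include the beta subunit-like gene Gnb1l, were all above 0, at 0.043 to 0.22, with Gnb2 highest. The 3 gamma subunit genes lay between -0.038 and 0.080.

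Downstream of Gq, 0 of the 3 phospholipase C beta genes passed (limma; 0 at an unadjusted p under 0.05), with 0.15 ± 0.083 for Plcb1 and -0.035 ± 0.059 for Plcb3. Of the 5 genes with a Prkc symbol, Prkcd rose and the other 4 lay between -0.054 and 0.11, the highest being Prkcsh. The calmodulin-dependent kinases included the main form of the heart muscle cell, Camk2d, at -0.047 ± 0.077 (95% interval -0.22 to 0.12), and Camk2g at -0.064 ± 0.071. Camk2b, an isoform best known from brain, had 0.37 ± 0.15 with an adjusted p of 0.230 (limma), and its direct Dil over WT ratios were -0.27, 0.019 and 1.09 in sets 1, 3 and 4. Set 4 was the highest of the 4 sets for Camk2b, as it was for Gnao1 and Gnai2.

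Calcineurin was measured through the catalytic subunit genes Ppp3ca and Ppp3cb and the regulatory subunit gene Ppp3r1, and 0 of 3 passed (limma; 0 at an unadjusted p under 0.05). Ppp3ca had 0.020 ± 0.075 (95% interval -0.14 to 0.18), with 3 spots between 0.0077 and 0.025. Ppp3cb had -0.11 ± 0.051 (95% interval -0.22 to 0.0023), also with 3 spots that lay close together at -0.15 to -0.083. For Ppp3r1 the value was -0.19 ± 0.10 (95% interval -0.41 to 0.034). Differences of 0.5 in either direction thus lie outside the interval of all 3 subunit genes.

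Of the 6 genes with an Nfat symbol, Nfatc4 was the 1 that passed. Nfatc1 had 0.21 ± 0.17, Nfatc2 had 0.012 ± 0.21 and Nfatc3 had 0.0092 ± 0.097, with adjusted p values of 0.610 to 0.987 (limma). The lower end of the 95% interval was -0.16 for Nfatc1, -0.44 for Nfatc2 and -0.20 for Nfatc3, against an estimate of -0.57 for Nfatc4. These genes were not tested against each other. Nfatc3 had 3 spots, which ran from -0.13 to 0.18 and so did not share a direction.

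The MEF2 and GATA factors regulate muscle and heart genes, and 0 of 8 passed (limma; 0 at an unadjusted p under 0.05). Mef2a had 0.043 ± 0.11 and Mef2d -0.22 ± 0.13, with the set values of Mef2d at -0.51, -0.32, -0.070 and -0.043. Gata4, a cardiac transcription factor, had 0.24 ± 0.11 (adjusted p = 0.325, limma) with set values of 0.096, -0.060, 0.16 and 0.60, and its 3 spots gave 0.028, 0.28 and 0.40. Gata5 and Gata6, which also act in the heart, had 0.030 ± 0.096 and -0.052 ± 0.11. Gata1, the blood cell factor, had 0.22 ± 0.11.

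**Figure D4:**
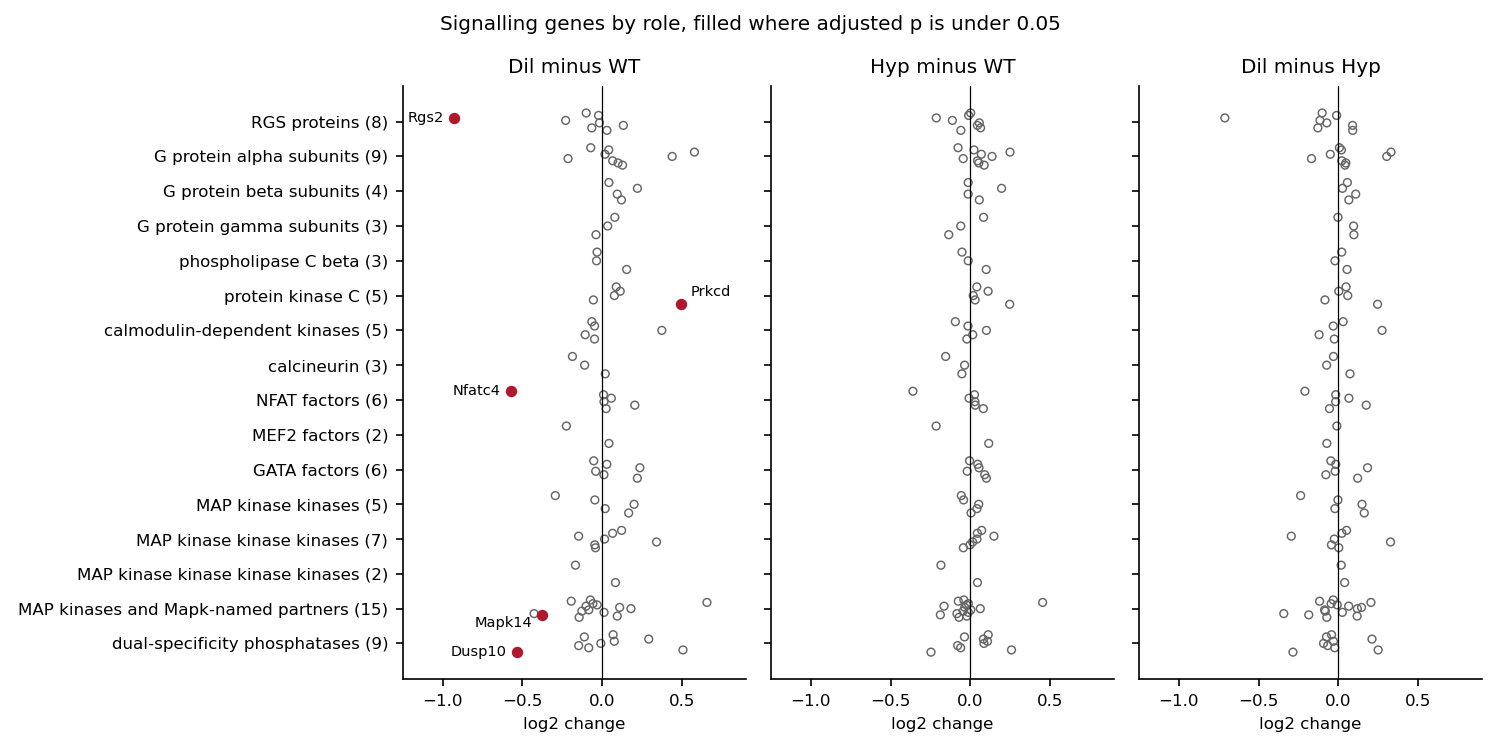
Fitted log2 change of each of the 92 genes by role (number of genes in brackets), in 1 panel per comparison, with filled points where the adjusted p is under 0.05. The 5 filled points, Rgs2, Prkcd, Nfatc4, Dusp10 and Mapk14, all stand in Dil minus WT.

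In the MAP kinase cascade, the upper kinases (2 Map4k and 7 Map3k genes) held 0 calls and 1 unadjusted p under 0.05. Map3k14, the kinase of the alternative NF-kappa B pathway, had 0.34 ± 0.11 (adjusted p = 0.137, limma), with set values of 0.28, -0.16, 0.54 and 0.45, and Map3k2 had -0.15 ± 0.096. Map4k4 had the widest spread between spots of the 46 genes with 2 or more fitted spots, from -0.20 to 0.32 over 5 spots, so its mean of 0.084 joins spots that disagree.

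The 5 MAP kinase kinase genes, with 0 calls and 2 unadjusted p values under 0.05, included the p38 activators Map2k3 and Map2k6. Map2k3 had 0.20 ± 0.080 and Map2k6 -0.29 ± 0.14, with adjusted p values of 0.239 and 0.343 (limma), and the 3 spots of Map2k3 ran from 0.0076 to 0.38. Neither passed beside the fall of their target Mapk14. The ERK activators Map2k1 and Map2k2 had 0.17 ± 0.072 and 0.019 ± 0.12, and Map2k4, an activator of JNK among other kinases, had -0.045 ± 0.070.

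The MAP kinases and genes with Mapk at the start of their symbol numbered 15, and Mapk14 was the 1 that passed. The JNK genes Mapk8 and Mapk9 had -0.083 ± 0.056 and -0.031 ± 0.061, with 95% intervals of -0.21 to 0.040 and -0.17 to 0.10. The remaining JNK gene, Mapk10, had -0.14 ± 0.099 (95% interval -0.36 to 0.074), and its set values were all below 0. Mapkapk2, a kinase phosphorylated by p38, had the highest value of the 92 genes, at 0.66 ± 0.43, but did not pass (adjusted p = 0.507, limma). Its set values were 0.36, 1.97, -0.56 and 1.53, its 95% interval ran from -0.30 to 1.61, and both of its spots had large errors (0.52 ± 0.29 and 0.79 ± 0.60).

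Of the 9 dual-specificity phosphatase genes, Dusp10 was the 1 that passed. Dusp3, a small phosphatase of ERK and JNK, had 0.29 ± 0.085 (adjusted p = 0.110, limma) with set values of 0.36, -0.072, 0.26 and 0.45. Dusp13, a phosphatase of testis and muscle, had 0.51 ± 0.19, but set 4 at 1.27 stood above sets 1 to 3 at 0.27, 0.47 and 0.0029. The group ran from -0.53 to 0.51 with a median of -0.0077.

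**Figure D5:**
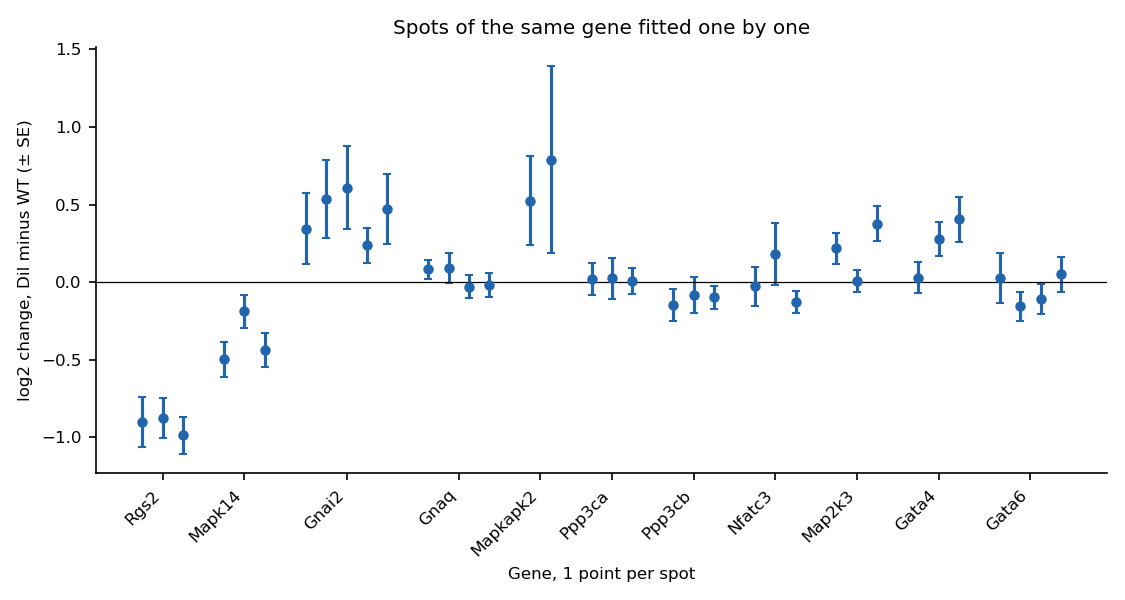
Log2 change in Dil against WT (± SE) of single spots of 11 genes with several spots, 1 point per spot. The 3 spots of Rgs2 lie at -0.99 to -0.87, the 3 of Ppp3ca at 0.0077 to 0.025, and those of Gata4 and Map2k3 are spread out.

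Repeated spots gave a check within the slides. Of the 46 genes with 2 or more fitted spots, 26 had all spots on the same side of 0 in Dil against WT, and the median distance between the highest and the lowest spot of a gene was 0.154. The 3 spots of Rgs2 differed by less than this, while those of Mapk14 differed by more. Of the 5 genes that passed, Prkcd, Nfatc4 and Dusp10 had 1 spot and so no such check.

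Hypertrophic hearts were compared with WT on 4 arrays and through the other 7. Of the 92 genes 0 passed (limma; 0% of all features), and an unadjusted p under 0.05 was reached by 4 (4.35%, 4.41% of all features). These were Nfatc4 at -0.36 ± 0.10, Prkcd at 0.25 ± 0.090, Mapk14 at -0.19 ± 0.075 and Dusp10 at -0.25 ± 0.099. All 4 are among the 5 genes that passed in Dil against WT. The 2 comparisons share the WT mice, so the shared names are not independent support. The set values had the same sign in 7 genes (7.61%, 12.0% of all features). Rgs2 had -0.21 ± 0.12 (95% interval -0.48 to 0.052), with set values of -0.45, 0.061, -0.23 and -0.16. The median over the 92 genes was 0.0043, against 0.00075 over all features.

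Dilated and hypertrophic hearts carried the same transgene and were set against each other directly on 4 arrays. The adjusted p of Rgs2 was 0.0520 (limma), just beyond the threshold, with a change of -0.71 ± 0.12 (SE, n = 4) and set values of -0.26, -0.71, -0.78 and -1.03. The replicate block gave a change of -0.70 with an adjusted p of 0.367. On direct arrays only the change of Rgs2 was -0.62 ± 0.10 (SE), and 0 of all 12097 features passed there (limma; 509 at an unadjusted p under 0.05). The adjusted p of Rgs2 was 0.999 on these arrays and 0.0924 with the WT and Hyp array of set 1 left out (limma). Without sets 1 to 4 it was 0.0748, 0.139, 0.814 and 0.243. It was under 0.05 in 4 alternatives (0.0246 to 0.0466), among them the fit with that column as deposited and the fit to features with a value on all 11 arrays. The fitted change lay between -0.89 and -0.56 over the alternatives. When spots were kept apart, 1 of its 3 spots passed (-0.79, adjusted p = 0.0321). An unadjusted p under 0.05 was reached by 10 of the 92 genes (10.9%, 9.64% of all features), of which 4 were higher and 6 lower in Dil. The set values had the same sign in 21 genes (22.8%, 15.9% of all features), with 13 lower in Dil. Map3k14 had 0.33 and Map3k2 -0.30, with adjusted p values of 0.285 and 0.280 (limma).

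Prkcd, Nfatc4, Dusp10 and Mapk14 did not pass in Dil against Hyp, with 0.25, -0.21, -0.29 and -0.19 and adjusted p values of 0.342 to 0.583 (limma). For these 4 genes the Hyp value lay between Dil and WT, and neither step passed alone. For Rgs2 the step between Dil and Hyp (-0.71) was larger than that between Hyp and WT (-0.21), and the 2 steps were not tested against each other.

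Other genes of the same pathways came from 9 lists of 206 genes, of which 122 were measured, with none of the 92 among them. In Dil against WT 5 rose and 2 fell, which is 7 of 122 beside 2.15% of all features, and the median was 0.092. An unadjusted p under 0.05 was reached by 32 of the 122 (16.2% of all features). The lists were chosen with earlier results of these data known. Their counts beside the shares of all features are therefore a description and no support for a change of these pathways. At the top of the pathway Agt, the gene of angiotensinogen, rose by 2.15 ± 0.40 (adjusted p = 0.0311, limma), 1 of 6 genes of its list. This is the product that the line makes in excess, and its higher value was used to choose the direction of the ratio. The rise of Agt, counted among the 7, is therefore no separate result. Grk5, a kinase that desensitises receptors, rose by 0.32 ± 0.073 (adjusted p = 0.0494), 1 of 7 genes of its list. Of 13 calcineurin modulators and NFAT kinases, Rcan1, a calcineurin inhibitor that is itself an NFAT target, rose by 1.56 ± 0.13 (adjusted p = 0.00102) and Tesc, a calcium-binding protein related to the calcineurin B subunit, fell by 0.56 (adjusted p = 0.00967). Rcan1 had set values of 1.45, 1.25, 1.47 and 1.92, beside the fitted changes of 0.020 for Ppp3ca and -0.11 for Ppp3cb. Carrier hearts were assigned in part by hypertrophic markers that the labels do not name. Whether Rcan1 was among those markers is unknown, so its rise may in part reflect how the hearts were chosen.

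The other 3 calls were spread over further lists. Prkar2b, a regulatory subunit of protein kinase A, fell by 0.52 (adjusted p = 0.0316, limma; 1 of 17 cyclic AMP branch genes). Camta1, a calmodulin-binding transcription activator, rose by 0.54 ± 0.094 (adjusted p = 0.0206; 1 of 11 deacetylase and cardiac transcription genes), and Rras2, a Ras family GTPase, by 0.58 ± 0.091 (adjusted p = 0.0143; 1 of 18 Ras and Raf genes). With the replicate block Agt and Rcan1 passed (adjusted p = 0.0298 each), and the other 5 had adjusted p values of 0.0706 to 0.230. The 15 phosphoinositide and calcium release genes and the 26 MAP kinase targets and other phosphatases held 0 calls. Of the 26 targets 21 lay above 0 (48.9% of all features lay below 0), with a median of 0.137 (0.0029 over all features), a description with no test. In Hyp against WT 0 of the 122 passed (limma; 7 at an unadjusted p under 0.05, 4.41% of all features), and in Dil against Hyp (0.165% of all features called) Rcan1 (1.00, adjusted p = 0.0236) and Camta1 (0.58, adjusted p = 0.0348) rose. With the replicate block 0 of all features passed in Dil against Hyp, and 1020 had an unadjusted p under 0.05.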

How the data were processed

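Ratios of 2 dyes were measured on 11 arrays of PCR-amplified cDNA clones, printed with 32 pins per the labels. The values deposited by the authors are log ratios per spot, taken as log2. No source used here gives the base or how the spots were scanned, corrected and normalized, and with natural logarithms every fold change would be larger. Depth is unknown without spot brightness, and the number of arrays limits precision. Column medians over the spots used lay near 0, at -0.0135 to 0.0037.

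The 736 control spots were left out. In the column of the WT and Hyp array of set 1, 11520 spots were displaced by 8 print blocks and were moved back, and 3840 were left without a value there. Spots were named from the platform annotation, spots of a gene were averaged, and a feature needed a value on 9 arrays. Generalised least squares gave each feature a Hyp, a Dil and a dye term, with mice as random effects (shared variance ratio 0.303). In R 4.3.3, limma 3.58.1 moderated the variances (prior df 3.26), with Benjamini-Hochberg adjustment over all features at a threshold of 0.05. Array ratios quoted singly include the dye effect. Set values combine all arrays of a set after removing it. The fit was also run on simulated data, drawn from the fitted model with the same spread on every array. The measured arrays differ in spread, so that run cannot show how the calls hold under unequal spread.

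Named genes were those passing in any comparison, the 8 with the smallest p in each, the 2 with the largest change in Dil against WT in each of 16 role groups, and a list of central pathway genes; from other lists, those that passed. The members, lists and rules were chosen with earlier results of these data known. The alternatives were other units of replication, scalings, centrings, filters, spot summaries and array sets, with each set left out in turn. The separate result of 1 of the 9 gene lists is not reported here.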

Additional observations from a re-analysis of the deposited data

Results flagged for a closer look

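For 7 of 150 results (50 named genes in 3 comparisons) 1 of the 4 set values stood apart from the other 3 by more than the critical gap; chance gives this in about 1 of 20. In Dil against WT, set 1 was the highest for Gnaq (0.156, others at most -0.00178) and for Map2k6 (-0.0284, others -0.418 to -0.372). Set 2 was the highest for Gnai1 (-0.0839, others -0.247 to -0.221) and for Ppp3cb (-0.00673, others -0.130 to -0.119), and its Dil and WT mice were compared only through Hyp2. Set 4 was the highest for Nfatc1 (0.581, others 0.0324 to 0.0862). In Hyp against WT, set 4 was the highest for Gnb2 (1.02, others -0.101 to -0.0679). In Dil against Hyp, set 2 was the lowest for Gng12 (-0.319, others 0.169 to 0.219). None of these 7 genes passed the test in any comparison.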

How the results depend on the processing

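The 260 features and 5 signalling genes called in Dil against WT became 6 and 0 with the replicate block, 7 and 0 on direct arrays only, 69 and 1 on arrays scaled to 1 common spread, 119 and 2 without a dye term, 94 and 1 with the set 1 WT and Hyp array left out, and 2 and 0 without the 2 arrays of widest spread (chosen after seeing the data). They became 377 and 6 without mouse effects, and 6 signalling genes also passed with print blocks centred, arrays centred on named spots and values on all 11 arrays, Mapk1ip1 being the sixth. With that set 1 column as deposited 2 signalling genes passed. Leaving out each set gave 0 to 119 features and 0 to 1 signalling genes. In Dil against Hyp, the 20 features became 0 with the replicate block and on direct arrays only, 52 without mouse effects, 33 with the column as deposited, 6 with it left out and 1 without the widest arrays. Leaving out each set gave 0 to 15 features there. Rgs2 was the 1 signalling gene that passed in Dil against Hyp when arrays were scaled, without mouse effects, with spots kept apart, with values on all 11 arrays and with the column as deposited. In Hyp against WT all counts stayed at 0. The range of adjusted p over alternatives in Dil against WT was 0.00568 to 0.222 for Rgs2, 0.0215 to 0.274 for Prkcd, 0.0241 to 0.223 for Nfatc4, 0.0192 to 0.255 for Dusp10 and 0.0235 to 0.325 for Mapk14. Direct arrays only and left-out sets have fewer arrays by construction; for the other settings the cause was not tested. Whether same-numbered mice deviate together could not be checked, since set effects cancel within each ratio. Of 2614 single-gene values under 18 alternatives, 2387 kept direction and side of the threshold, 47 lost and 8 gained the threshold, and 172 uncalled values changed sign. Only the 5 calls in Dil against WT could lose the threshold. It was lost in 5 of 17 alternatives for Rgs2, 10 of 18 for Prkcd and 11 of 18 for Nfatc4. For Dusp10 it was lost in 10 of 18 and for Mapk14 in 11 of 17. The alternative with a value on at least 6 arrays repeated the reported fit.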

Other observations

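A further 6 tested spots name several genes, with at least 1 symbol that starts as the selection rule requires, and were kept as unnamed features. Whether that gene is also among the signalling genes counted above was not checked. In Dil against WT 1 of the 6 passed, with a change of -0.363 and an adjusted p of 0.0326 (limma, over all features); the other 5 had adjusted p values of 0.394 to 0.960.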
